A study of Mus musculus with 21 samples.

Results

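The genes described here are the 4 inhibitor of DNA binding genes Id1, Id2, Id3 and Id4 and 4 genes of bone morphogenetic protein (BMP) signaling: the ligand gene Bmp4, the type I receptor gene Bmpr1a, the pseudoreceptor gene Bambi and the inhibitory SMAD gene Smad6. They were chosen by symbol, which gave 8 of the 40838 genes in each of 2 count tables, and all 8 passed the filter on low counts in both tables. The samples were polyadenylated RNA of mouse embryonic stem cells (ESCs), 21 libraries in 8 groups, each grown for 48 h in a mixture of DMEM and NB media with 0.2 mM pyruvate and 10% dialyzed serum. From the growth notes in the labels, SL is taken to mean serum plus leukemia inhibitory factor (LIF), and SL2i to mean SL plus 2i, which inhibits the kinases GSK3B and MEK. In one table, cells in SL carried an empty vector (3 libraries) or LbNOX (3 libraries), a bacterial enzyme that oxidizes NADH. The second (clone) table compared a line called chr8A, taken as the control, with SLC16A1 clone 1 and SLC16A1 clone 2. Every line had 3 libraries in SL and 2 in SL2i. SLC16A1 is the gene of MCT1, a plasma membrane carrier of pyruvate, lactate and other monocarboxylates. The sources used here do not say how either clone was made. Each clone is a single clonal line, and there was 1 control line.

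BMP ligands bind a complex of type I and type II receptor kinases, which phosphorylate SMAD1, SMAD5 and SMAD9. These join SMAD4 in the nucleus and raise transcription of the Id genes, which are among the best known direct BMP targets. ID proteins have a helix-loop-helix but no DNA-binding basic region, so they pair with E proteins and keep them from DNA. In mouse ESCs, BMP or serum acting with LIF is known to hold back differentiation, in part through ID proteins. SMAD6 and BAMBI are feedback inhibitors of the pathway that are themselves induced by it.

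Total counts were 16521594 to 30008895 per library in the table with LbNOX. In the clone table they were 15802072 to 30145771 in SL and 9784408 to 10908368 in SL2i, so medium and library set cannot be told apart. Clones 1 and 2 had less Slc16a1 transcript than chr8A: its means in chr8A, clone 1 and clone 2 were 198, 171 and 93.5 CPM (counts scaled to the normalized library size) in SL and 162, 123 and 78.6 in SL2i. Summed over 8 markers, ESC genes stood at 3460 to 3807 CPM in the SL libraries of the clone table and 5381 to 5841 in SL2i. The markers went both ways in chr8A: Utf1 (337 to 85.6 CPM) and Tdgf1 (715 to 669 CPM) were lower in SL2i. The other markers were higher, most of all Nanog (268 to 1179 CPM). Libraries of 1 group are of the same line, and no label says that they came from separate cultures, so the spread behind the p-values may be only technical. In RNA from whole cultures, fewer cells of a type and less RNA per cell cannot be told apart.

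Promoter windows of 250 bases before the gene start were read from RefSeq sequence of the build GRCm38.p6, older than the build of the counts. Of the 8 genes, 6 had an entry, all but Id1 and Bambi. Bmp4, Id2 and Id4 are shown because their transcripts responded to the media in different ways. Sequences run 5′ to 3′ on the gene's strand. Capitals mark GGCGCC, a GC-rich element bound by SMAD1 and SMAD5, and GTCT, the SMAD box, here read on either strand. For Id2 the 89 bases outside annotated exons are given, and the window of Id3 lay in annotated exons and is not shown.
Bmp4 (chr14:46390670-46390919, - strand): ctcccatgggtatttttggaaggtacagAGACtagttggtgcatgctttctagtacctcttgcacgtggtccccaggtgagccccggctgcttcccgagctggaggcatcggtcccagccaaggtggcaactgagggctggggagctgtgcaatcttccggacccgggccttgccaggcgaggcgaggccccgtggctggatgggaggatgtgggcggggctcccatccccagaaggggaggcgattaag
Id2 (chr12:25096254-25096342, - strand): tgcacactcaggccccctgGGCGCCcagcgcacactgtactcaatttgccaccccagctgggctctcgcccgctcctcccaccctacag
Id4 (chr13:48260866-48261115, + strand): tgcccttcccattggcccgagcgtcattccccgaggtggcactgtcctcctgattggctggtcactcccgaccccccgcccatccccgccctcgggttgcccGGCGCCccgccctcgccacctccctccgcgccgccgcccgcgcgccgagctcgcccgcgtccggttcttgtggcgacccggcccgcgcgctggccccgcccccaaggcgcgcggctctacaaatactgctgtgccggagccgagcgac
GGCGCC occurred once in the windows of Id2, Id4 and Bmpr1a and was not found in those of Bmp4, Smad6 and Id3. It was present in 9.59% of 32851 mouse promoter windows of the same length, searched on both strands. GTCT, present in 82.9% of windows, occurred once in Bmp4, Smad6 and Id2, 2 times in Id3 and in neither Id4 nor Bmpr1a. The E box CANNTG (66.2% of windows), which E proteins bind, occurred 3 times in Bmp4 and once in Id2. CTTTGA, the TCF/LEF element (13.8% of windows), was found in none of the 6. Id2 and Id4 both held GGCGCC, and their transcripts went opposite ways between the media. A match describes the letters of the window and not a bound site.

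In chr8A cells, the ID transcripts moved in opposite directions between the media: Id1, Id2 and Id3 were lower in SL2i than in SL, and Id4 was higher. Id1 measured 43.3, 43.5 and 41.7 CPM in the SL libraries and 4.83 and 4.15 CPM in the SL2i libraries. Id2 measured 81.2, 78.6 and 83.0 CPM in SL and 9.28 and 8.99 CPM in SL2i. Id1 fell by 3.25 ± 0.13 on the log2 scale (approximate SE, adjusted p = 9.8e-30, edgeR quasi-likelihood test, Benjamini-Hochberg adjustment over 17178 genes). Id2 fell by 3.15 ± 0.085 (adjusted p = 3.2e-58). These were 9.52-fold and 8.86-fold lower levels. Each SE of a change was worked back from the change and its test statistic, and can be too small for large falls to few reads. No SL2i library came near an SL library for either gene. Id3 measured 16.8, 18 and 19.3 CPM in SL and 6.57 and 7.60 CPM in SL2i, and fell by 1.35 ± 0.12 (adjusted p = 3.9e-18), a smaller drop than those of Id1 and Id2. Id4 measured 4.93, 5.32 and 2.96 CPM in SL and 20.2 and 17.0 CPM in SL2i, and rose by 2.08 ± 0.15 (adjusted p = 1.1e-22). Both SL2i libraries of chr8A lay above every SL library for Id4 and below every SL library for Id3.

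The BMP signaling genes moved less between the media in chr8A cells, and in both directions. Smad6, whose protein blocks receptor-activated SMADs, measured 5.22, 4.27 and 4.79 CPM in SL and 10.8 CPM in each SL2i library, and rose by 1.18 ± 0.16 (adjusted p = 2.2e-10). Bambi, a receptor without a kinase domain, measured 9.81, 10.8 and 11.9 CPM in SL and 16.9 and 16.2 CPM in SL2i, and rose by 0.61 ± 0.12 (adjusted p = 1.9e-06). Both feedback inhibitors were therefore higher in the medium where Id1, Id2 and Id3 were lower and Id4 was higher. Other inhibitors of the pathway, given further on, went both ways, and a link to the ID transcripts was not tested. Bmp4 measured 16, 16.4 and 14.6 CPM in SL and 10.3 and 12.5 CPM in SL2i, and fell by 0.45 ± 0.12 (adjusted p = 0.00074). That call ended without SL2i chr8A replicate 1 (-0.34, adjusted p = 0.054). Bmpr1a, the BMP type I receptor also called ALK3, measured 147, 143 and 146 CPM in SL and 114 and 120 CPM in SL2i, and fell by 0.31 ± 0.042 (adjusted p = 2.2e-10). All 8 genes were called, 3 higher and 5 lower, in a comparison that called 72.8% of all genes tested, 36.1% higher and 36.8% lower, so a count of 8 says little about these genes. Their median absolute log2 fold change was 1.27, against 0.62 over all genes tested.

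**Figure D1:**
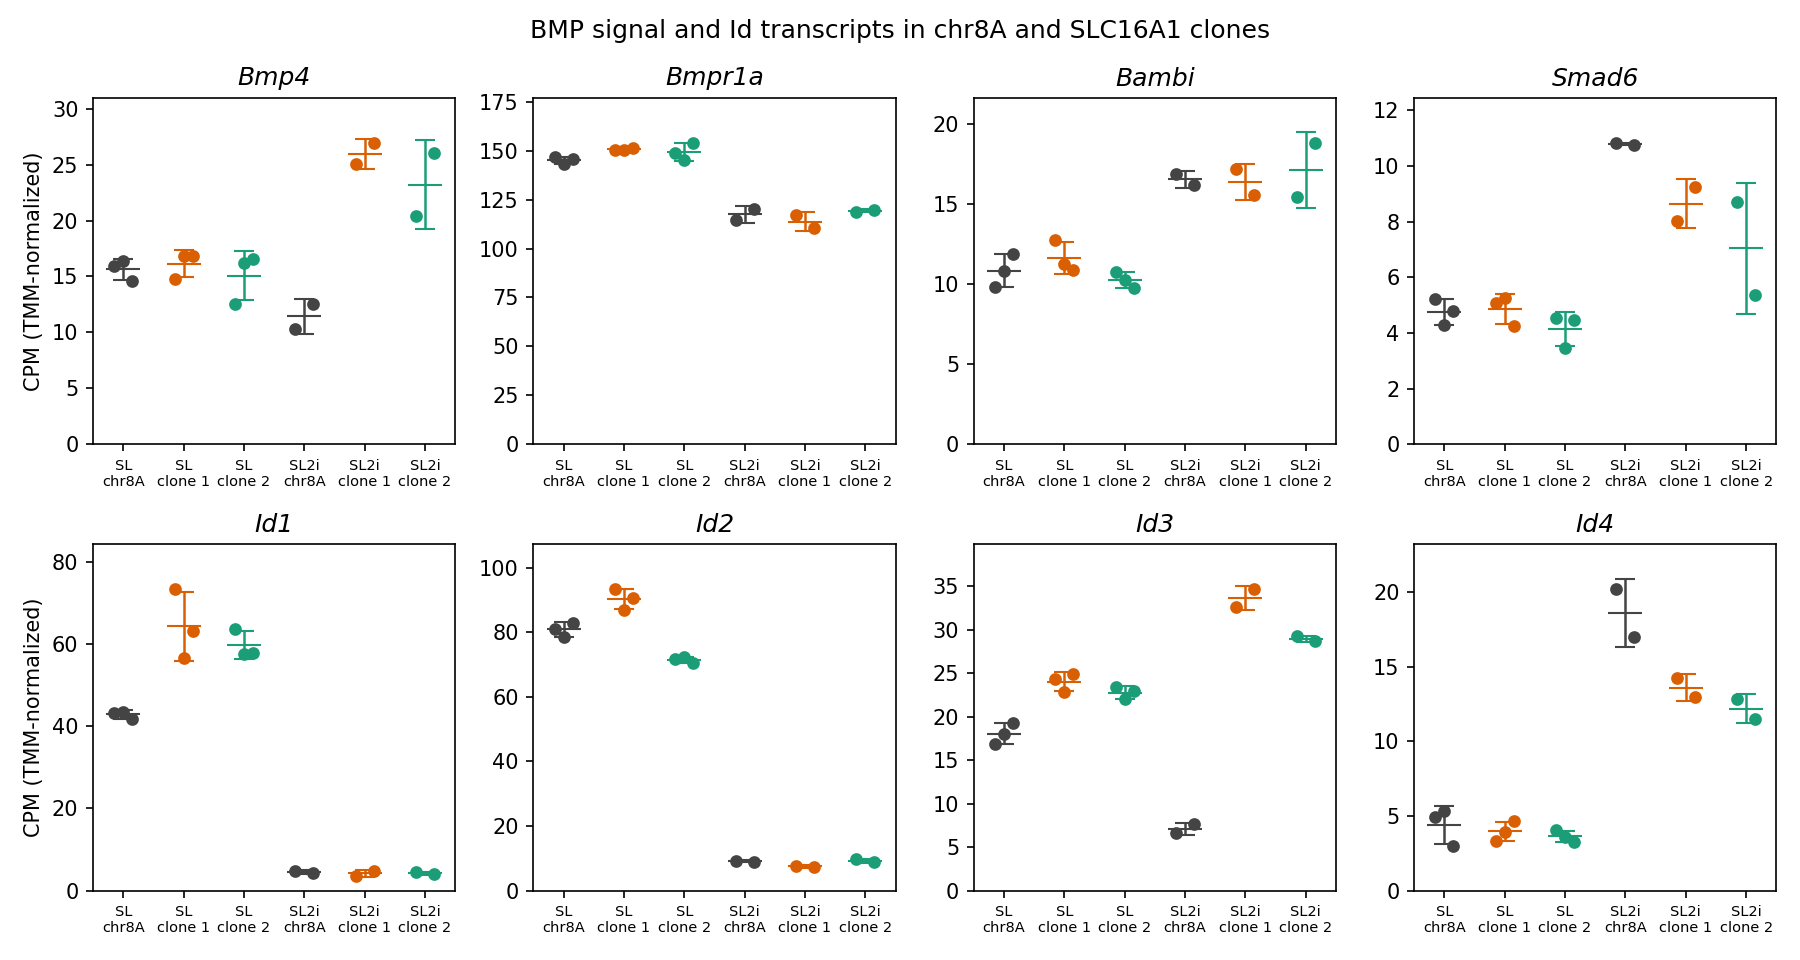
TMM-normalized CPM (y axis, linear, from 0) of each of the 8 genes in every library of the clone table; points are libraries, dashes with bars are group means ± SD, and the 6 groups on the x axis are chr8A, clone 1 and clone 2 in SL (3 libraries each) and in SL2i (2 each). Id1 and Id2 are low in all 6 SL2i libraries, whereas Id3 and Bmp4 are lower in SL2i than in SL for chr8A and higher for both clones.

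In both clones the medium moved Id1, Id2, Id4, Smad6, Bambi and Bmpr1a the same way as in chr8A, but Id3 and Bmp4 the other way. Again all 8 genes were called in each clone, against 73% and 73.1% of all genes. Id1 fell by 3.94 ± 0.13 in clone 1 and fell by 3.82 ± 0.13 in clone 2 (adjusted p = 3.1e-34 and 7e-34). Id2 fell by 3.60 ± 0.089 in clone 1 and fell by 2.95 ± 0.086 in clone 2 (adjusted p = 3.2e-61 and 3.3e-55), and Id4 rose by 1.78 ± 0.17 and 1.77 ± 0.17 (adjusted p = 3.3e-16 and 1.9e-16). Smad6 rose by 0.83 ± 0.18 and 0.78 ± 0.18 (adjusted p = 1.9e-05 and 8.8e-05), a call that in clone 2 ended without SL2i clone 2 replicate 1 (0.38, adjusted p = 0.18). Bambi rose by 0.49 ± 0.12 and 0.75 ± 0.12, and Bmpr1a fell (-0.41 ± 0.043 and -0.32 ± 0.042). Id3, in contrast, rose by 0.49 ± 0.085 in clone 1 and by 0.35 ± 0.085 in clone 2 (adjusted p = 2.8e-07 and 0.00013). Bmp4 rose by 0.69 ± 0.11 and 0.59 ± 0.10 (adjusted p = 1.2e-08 and 3.8e-07).

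The test of that difference, the change with medium in a clone minus the change in chr8A, gave 1.84 ± 0.15 for Id3 in clone 1 (adjusted p = 7.9e-19) and 1.70 ± 0.15 in clone 2 (adjusted p = 7.3e-17). For Bmp4 it gave 1.14 ± 0.16 (adjusted p = 2.7e-08) and 1.04 ± 0.16 (adjusted p = 2.6e-07). Of the 8 genes, 3 passed in clone 1 and 2 in clone 2, where 17% and 16.9% of all genes passed. The third gene in clone 1 was Id2 at -0.45 ± 0.16 (adjusted p = 0.041), and that call ended under 10 of 17 other settings, with adjusted p-values up to 0.22. Id1 had -0.69 ± 0.26 (adjusted p = 0.061) in clone 1 and -0.57 ± 0.26 (adjusted p = 0.13) in clone 2. Both clones were set against the same chr8A libraries, so the pair of tests for a gene are not separate.

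**Figure D2:**
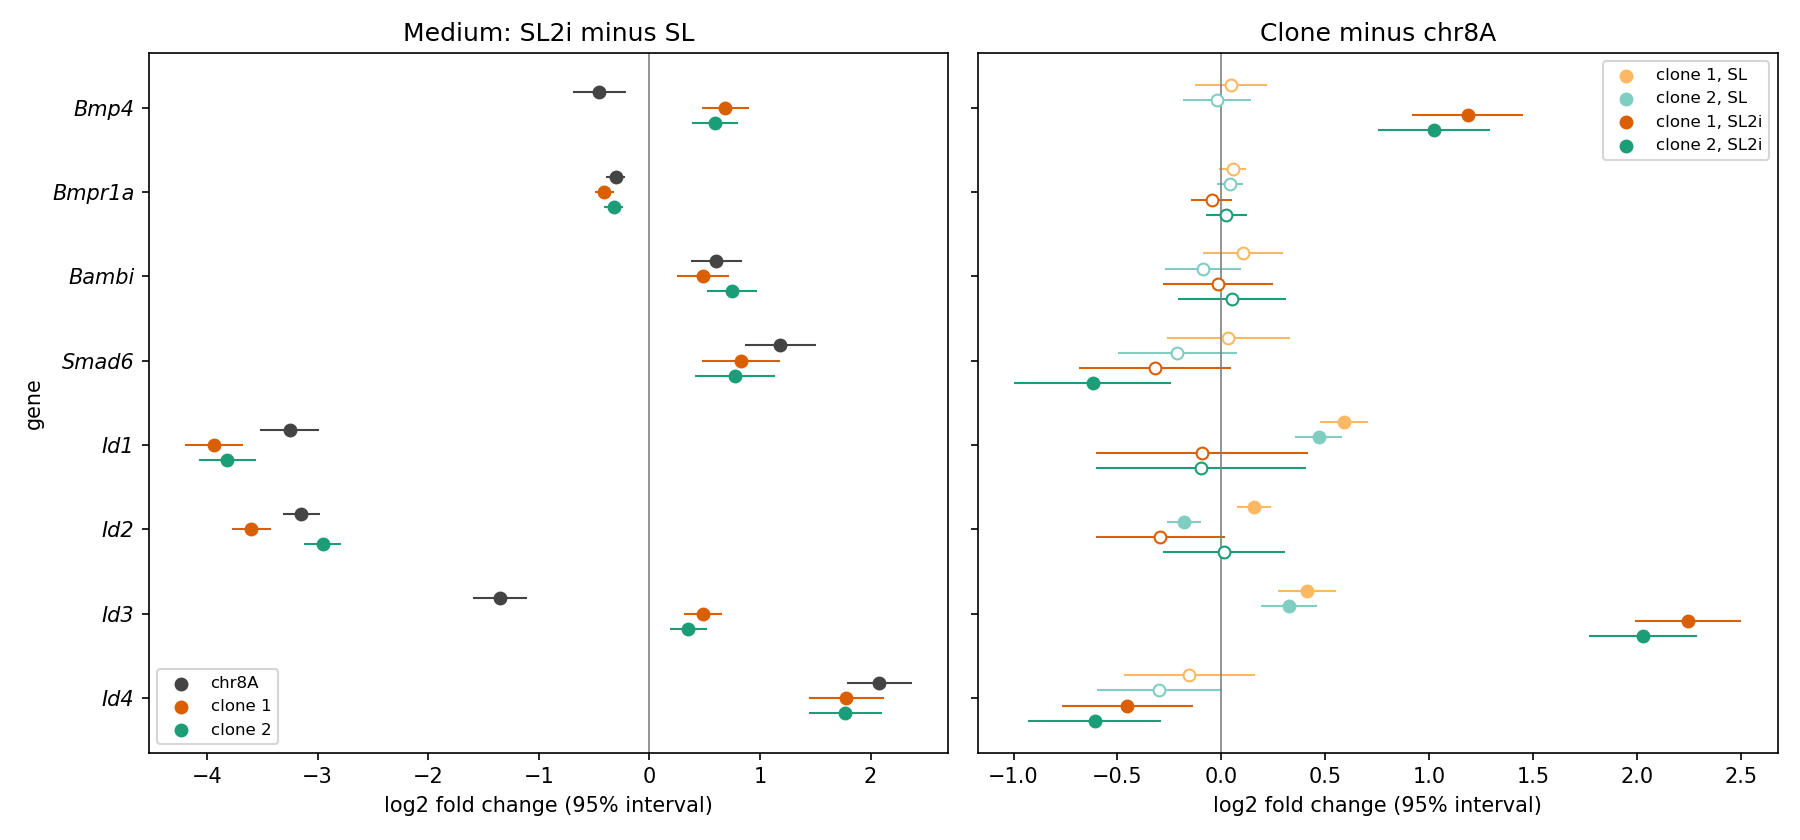
Log2 fold changes (x axis) of the 8 genes (y axis), with 95% intervals as bars; filled points passed at an adjusted p under 0.05 and open points did not. The panels show SL2i against SL within each line and each clone against chr8A within each medium; Id3 and Bmp4 lie at 2.25 and 1.18 for clone 1 and at 2.03 and 1.02 for clone 2 in SL2i.

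Within SL, both clones had more Id1 and Id3 transcript than chr8A. Clone 1 had 73.2, 56.6 and 63.2 CPM of Id1 and clone 2 had 63.6, 57.6 and 57.7 CPM, against 41.7 to 43.5 CPM in chr8A. Id1 rose by 0.59 ± 0.058 in clone 1 (adjusted p = 8.5e-12) and by 0.47 ± 0.056 in clone 2 (adjusted p = 1.8e-09), 1.51-fold and 1.38-fold. Every clone library lay above every chr8A library. Id3 measured 24.3, 22.9 and 24.9 CPM in clone 1 and 23.4, 22.0 and 22.9 CPM in clone 2, against 16.8 to 19.3 CPM in chr8A, and rose by 0.41 ± 0.071 (adjusted p = 3.8e-06) and 0.33 ± 0.068 (adjusted p = 7.2e-05). Id2 separated the clones from one another. It measured 93.3, 87.0 and 90.8 CPM in clone 1 and 71.8, 72.3 and 70.4 CPM in clone 2, on either side of the 78.6 to 83.0 CPM of chr8A. Its change was 0.16 ± 0.041 in clone 1 (adjusted p = 0.0027) and -0.18 ± 0.041 in clone 2 (adjusted p = 0.0003). The clone 1 call ended when all libraries were thinned to equal depth (0.13, adjusted p = 0.069).

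The other 5 genes did not pass in SL. Bmp4 was close to level, at 14.8, 16.8 and 16.8 CPM in clone 1 and 12.5, 16.2 and 16.6 CPM in clone 2, both overlapping chr8A. The 95% interval of its log2 difference from chr8A was -0.13 to 0.22 in clone 1 and -0.18 to 0.14 in clone 2. For Bmpr1a it was -0.01 to 0.12 and -0.02 to 0.10. Changes of the less abundant genes were bounded more loosely: -0.47 to 0.16 and -0.60 to 0.00 for Id4, -0.26 to 0.33 and -0.50 to 0.07 for Smad6, and -0.09 to 0.30 and -0.27 to 0.10 for Bambi. For Id4 in clone 2 the difference passed without SL chr8A replicate 3, the lowest chr8A library for this gene (-0.53, adjusted p = 0.0052). In all, 3 of 8 genes were called in each clone, where 16.6% of all genes were called in clone 1 and 26.9% in clone 2.

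Within SL2i, Id3 and Bmp4 stood well above chr8A in both clones, while Id1 and Id2 did not pass the test. Id3 measured 32.6 and 34.6 CPM in clone 1 and 29.2 and 28.7 CPM in clone 2, against 6.57 and 7.60 CPM in chr8A. It rose by 2.25 ± 0.13 in clone 1 (adjusted p = 4.6e-29) and by 2.03 ± 0.13 in clone 2 (adjusted p = 2.4e-25), 4.75-fold and 4.09-fold. Leaving out any 1 library kept these changes between 2.15 and 2.36 in clone 1 and between 1.93 and 2.14 in clone 2. Bmp4 measured 25.0 and 26.9 CPM in clone 1 and 20.4 and 26 CPM in clone 2, against 10.3 and 12.5 CPM in chr8A, and rose by 1.18 ± 0.13 (adjusted p = 8.8e-12) and 1.02 ± 0.14 (adjusted p = 2.7e-09). All clone libraries lay above both chr8A libraries for Id3 and for Bmp4. The Id3 level of the clones in SL2i was also above that of every SL library of the clone table, in which the highest was 24.9 CPM.

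Id1 measured 3.59 and 4.78 CPM in clone 1 and 4.46 and 3.94 CPM in clone 2 in SL2i, overlapping chr8A, on 34 to 50 reads per library. Its difference from chr8A was -0.09 (95% interval -0.60 to 0.41) in clone 1 and -0.10 (-0.60 to 0.41) in clone 2. The Id1 gain that the clones had in SL was thus not detected in SL2i at this depth. In clone 1 the upper bound of 0.41 lay below the 95% interval of the gain in SL, 0.47 to 0.71. In clone 2 the bound lay within the SL interval, 0.36 to 0.58. The test of that contrast between media is the one given above, which did not pass for Id1. Id2 differed by -0.29 (-0.61 to 0.02) and 0.01 (-0.28 to 0.31). Id4 measured 14.3 and 13.0 CPM in clone 1 and 12.9 and 11.5 CPM in clone 2 against 20.2 and 17.0 CPM in chr8A, with falls of -0.45 ± 0.16 (adjusted p = 0.029) and -0.61 ± 0.16 (adjusted p = 0.0026).

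These Id4 calls rested on single libraries. In clone 1 the call ended with DESeq2 (adjusted p = 0.095), without SL2i chr8A replicate 1 (-0.31, adjusted p = 0.33) and without SL2i clone 1 replicate 1 or 2 (adjusted p = 0.067 and 0.23). In clone 2 it ended without SL2i chr8A replicate 1 (adjusted p = 0.10) and without SL2i clone 2 replicate 2 (adjusted p = 0.059). Smad6 measured 8.71 and 5.38 CPM in clone 2 against 10.8 CPM in both chr8A libraries, and fell by 0.62 ± 0.19 (adjusted p = 0.011). The Smad6 call ended without SL2i chr8A replicate 1 (-0.61, adjusted p = 0.063) and without SL2i clone 2 replicate 2 (-0.30, adjusted p = 0.43). In clone 1, Smad6 at 8.02 and 9.27 CPM did not pass (-0.32, interval -0.68 to 0.05). Bambi and Bmpr1a overlapped chr8A in both clones, with intervals of -0.28 to 0.25 and -0.21 to 0.31 for Bambi and -0.15 to 0.05 and -0.075 to 0.12 for Bmpr1a. Of the 8 genes, 3 were called in clone 1 and 4 in clone 2, against 22.4% and 20.6% of all genes.

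Set against one another, the clones passed the test at Id2 in SL and at none of the 8 genes in SL2i. Id2 was lower in clone 2 than in clone 1 in SL by 0.34 on the log2 scale (-0.34 ± 0.042, adjusted p = 8.5e-10), the 1 call of 8 where 4.4% of all genes were called. Id1 differed by -0.12 ± 0.056 there (adjusted p = 0.25), and passed without SL clone 1 replicate 2 (-0.21, adjusted p = 0.021). In SL2i edgeR called 27 genes in all, 0.157%, and none of the 8, with 1 of the 8 at an unadjusted p under 0.05. DESeq2 also called none of the 8. That gene was Id3, at -0.22 (interval -0.41 to -0.02, adjusted p = 0.53). The far end of that interval was -0.41, beside gains of 2.25 and 2.03 over chr8A.

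Some markers of other cell types moved with these groups. Between the clones and chr8A in SL2i, 22.4% of all genes were called in clone 1 and 20.6% in clone 2. In SL2i, 5 neural markers summed to 27.2 to 28.7 CPM in chr8A and 47.2 to 52.1 CPM in the clones, where of the 3 tested Sox1 and Tubb3 rose in both clones. Neurog2 was at 0 in all 3 SL2i groups and Dcx in chr8A and clone 2. The sums of 8 primitive endoderm markers were 6.71 to 7.44 CPM in chr8A and 12.6 to 15 CPM in the clones, with Foxa2 at 0 in chr8A and Sox7 at 0 in clone 1. Of the 6 tested, Dab2 (2.19 ± 0.29 and 2.09 ± 0.29) and Hnf4a rose in both clones and none fell, while Gata4 had -0.91 ± 0.38 and -0.63 ± 0.36 and did not pass. For 7 mesoderm markers the sums were 10.8 to 15.6 CPM and 18.4 to 21.4 CPM, with T, which marks the primitive streak, at 0 in all 3 groups and Mesp1 at 0 in chr8A. Of the 5 tested, Eomes alone rose (0.85 ± 0.16 and 0.72 ± 0.16) and none fell. These 3 sums, each carried by 1 or 2 genes, were higher in the groups where Id3 and Bmp4 were higher, and their part in those results was not tested.

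Trophectoderm markers (6 genes) summed to 47.0 to 49.3 CPM in all SL2i libraries, a level sum over members that moved apart. Gata3 rose in both clones, Krt7 rose from a mean of 0.098 CPM in chr8A to 1.01 and 1.61 CPM, and Tfap2c, the most abundant, fell (-0.49 ± 0.091 in clone 1). Gata3 also stands among the BMP targets described further on. In SL this sum moved with the groups in which Id1 and Id3 were higher: it was 115 to 126 CPM in chr8A, 94.2 to 99.6 CPM in clone 1 and 94.4 to 97.4 CPM in clone 2. Krt7 and Tfap2c fell in both clones there. Hand1 fell in clone 2 (-0.51 ± 0.20, adjusted p = 0.047), while Cdx2 rose in clone 1 (1.07 ± 0.32, adjusted p = 0.012). The part of these genes in the Id1 and Id3 results was not tested.

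Between the media, 10 fibroblast markers summed to 39.6 to 50.3 CPM in SL and 3.85 to 6.38 CPM in SL2i. All 6 tested fell in chr8A. Col3a1, Dcn and Postn were at 0 in all 3 SL2i groups, and Fap was at 0 in every group of both media. The neural (99.9 to 112 CPM in SL), primitive endoderm (20.6 to 25.9 CPM) and trophectoderm sums were also higher in SL, but their members went both ways in chr8A. In that line 36.1% of all genes were called higher in SL2i and 36.8% lower, so counts near those shares say little. Of the neural markers 1 rose and 2 fell, of the primitive endoderm markers 2 rose and 3 fell, and of the trophectoderm markers 2 rose and 3 fell. Sox1 (1.32 ± 0.20), Hnf4a, Pdgfra, Cdx2 (2.74 ± 0.32) and Gata3 were the genes higher in SL2i, while Tubb3 (-2.25 ± 0.065), Dab2 and Krt7 were among those lower. The part of these genes in the medium results was not tested.

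Transcript per gene length allows the 4 ID genes to be compared with one another. In SL chr8A cells Id2 was the most abundant at 63.6 ± 1.74 CPM per kb (SD, n = 3), followed by Id1 at 36.9 ± 0.853, Id3 at 18.9 ± 1.30 and Id4 at 1.11 ± 0.319, steps well beyond the spread. In SL2i chr8A cells Id3 (7.44 ± 0.766, n = 2) and Id2 (7.18 ± 0.162) were within their spread, above Id4 at 4.69 ± 0.573 and Id1 at 3.87 ± 0.417. In SL2i, Id3 stood alone at 35.3 ± 1.49 CPM per kb in clone 1 and 30.4 ± 0.371 in clone 2. The summed level of the 4 genes was 121 ± 1.42 CPM per kb in SL chr8A and 23.2 ± 0.387 in SL2i chr8A, against 48.2 ± 1.71 and 44.3 ± 1.46 in clones 1 and 2 in SL2i. Id3 made up 32.1% ± 3.84 of that sum in SL2i chr8A, 73.2% ± 0.485 in clone 1 and 68.6% ± 1.43 in clone 2. In SL its share was, in the same order, 15.7% ± 0.938, 16.5% ± 0.781 and 18% ± 0.408. The share of Id4 went from 0.923% ± 0.274 in SL to 20.2% ± 2.14 in SL2i in chr8A.

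**Figure D3:**
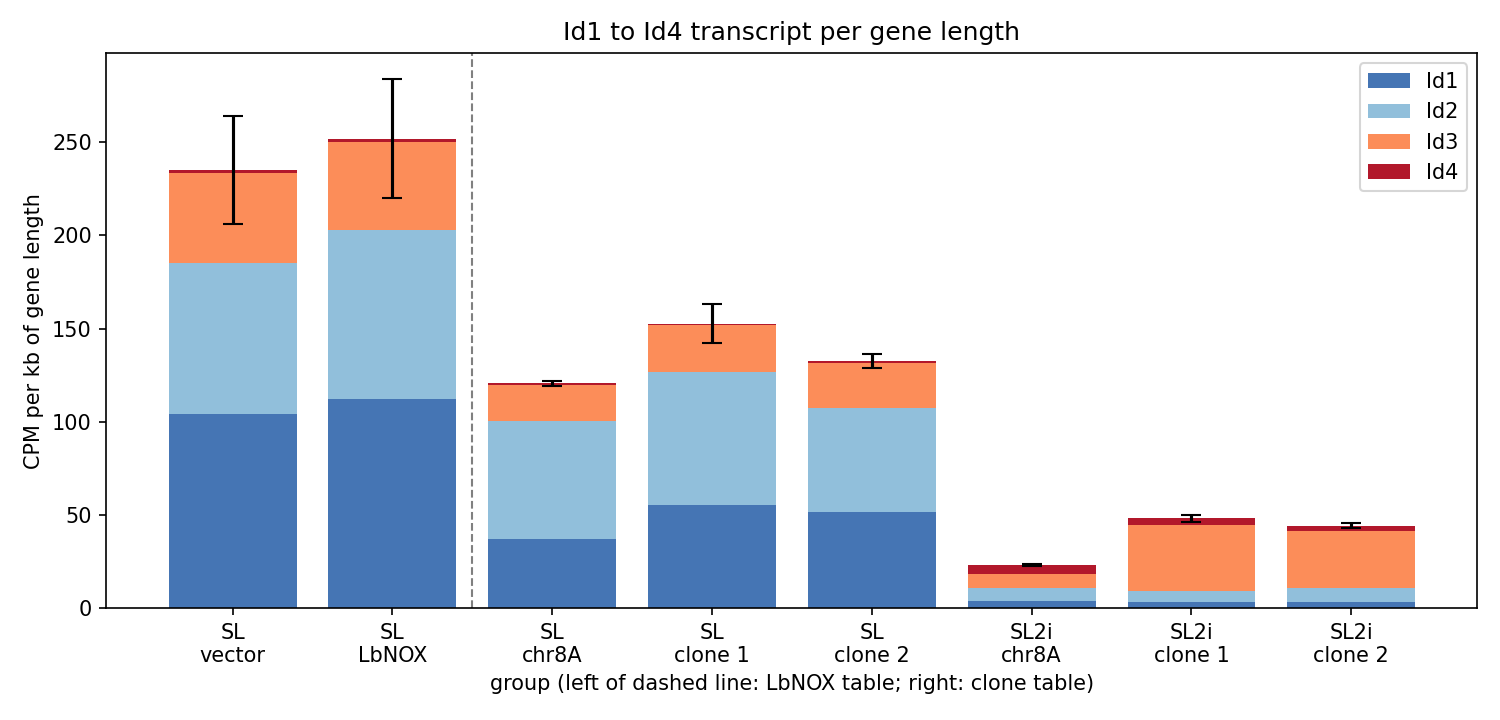
Stacked bars of mean CPM per kb of gene length (y axis, from 0) for Id1, Id2, Id3 and Id4 in the 8 groups; the dashed line separates the 2 tables, which were normalized separately. Id1 and Id2 make up most of each SL bar, and Id3 makes up 73.2% and 68.6% of the SL2i bars of clones 1 and 2.

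Of the signaling genes, Bmpr1a was the most abundant per length in all groups of the clone table, at 23.9 ± 0.277 CPM per kb in SL chr8A and 19.3 ± 0.704 in SL2i chr8A. Bmp4 followed at 7.59 ± 0.463 and 5.56 ± 0.756, and rose to 12.6 ± 0.652 and 11.3 ± 1.93 in the SL2i clones. Bambi (1.91 ± 0.185) and Smad6 (1.58 ± 0.158) differed in SL chr8A by less than the sum of their SDs. In SL2i chr8A the order of this pair turned, with Smad6 at 3.59 ± 0.0142 and Bambi at 2.91 ± 0.0893.

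The rest of the pathway was read from lists of genes around these 8. In chr8A cells their counts of calls between the media stand beside 36.1% of all genes called higher and 36.8% called lower, 72.8% in all, and a count near that share says little about a list. Of 10 BMP receptors and co-receptors, 3 were higher in SL2i and 7 lower. The co-receptor genes Rgma and Eng (endoglin) rose by 2.96 ± 0.17 and 1.55 ± 0.067, and the type II receptor genes Acvr2b (-0.98 ± 0.047) and Bmpr2 (-0.78 ± 0.061) fell. Of 9 SMAD mediators and inhibitors tested, 2 rose and 7 fell, among them Skil (-2.16 ± 0.043) and Ski (-0.46 ± 0.042), corepressors of SMADs, and Smad4 (-0.43 ± 0.044). Tob1, which represses SMAD output, rose by 1.17 ± 0.074. Of 7 other BMP ligands tested, 2 rose and 3 fell, with Bmp7 at 0.50 ± 0.15 and Bmp8b at -4.28 ± 0.20. Bmp8b, Bmp8a and Bmp6 share 11.9%, 11.3% and 5.25% of their 30-base sequence words with other genes, so their values are uncertain. The medians of these lists were -0.65, -0.51 and -1.45, against 0.00088 over all genes tested. The ligand median was the value of Gdf7, which did not pass and had means of 0.678 CPM in SL and 0.243 CPM in SL2i. Bmp2 and Gdf6 were also under 1 CPM in both media.

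Antagonists outside the cell went both ways in chr8A: of 9 tested, 2 were higher and 5 lower in SL2i, beside the same 72.8% of all genes called. Fst (follistatin) rose by 2.25 ± 0.13, while Nog (noggin) at 2.95 CPM in SL and 0.245 in SL2i fell by 3.56 ± 0.47 and Nbl1 fell by 3.85 ± 0.37. Of 9 other genes known as BMP targets, 5 rose and 3 fell. Dusp9, a phosphatase of ERK that BMP induces in ESCs, went from 164 to 20.2 CPM and fell by 3.02 ± 0.065, in the same direction as Id1 and Id2. Tbx3, a transcription factor gene of naive ESCs, went from 17.2 to 284 CPM and rose by 4.04 ± 0.055. Of 7 E protein and partner genes, 2 rose and 3 fell: the E2-2 gene Tcf4 rose by 0.77 ± 0.061, Hes1 rose by 1.03 ± 0.081 and Ets1 fell by 4.44 ± 0.21. The HEB gene Tcf12 fell by 0.19 ± 0.053. Neurog3, under 1 CPM in each group, also fell. The E protein gene Tcf3 did not pass, at 0.030.

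In SL2i, several other BMP targets were also higher in the clones than in chr8A: 5 of 9 in clone 1 and 4 of 9 in clone 2 rose, and none fell. The list's medians were 0.62 and 0.55, against -0.0036 and -0.0021 over all genes tested. Calls among all genes were 10.4% higher and 12.1% lower for clone 1, while clone 2 had 9.74% higher and 10.8% lower. This list leaves out the 8 genes, of which Id3 and Bmp4 rose in both clones in SL2i. Id1, Id2, Bambi and Bmpr1a did not pass there. Id4 fell in both clones and Smad6 in clone 2, on calls that ended without single libraries. Gata2, a transcription factor gene, went from 5.13 CPM in chr8A to 10.2 and 9.07 CPM, and rose by 0.99 ± 0.205 and 0.82 ± 0.208 (adjusted p = 7.5e-05 and 0.0015). Its relative Gata3 rose by 0.94 ± 0.18 and 0.86 ± 0.18. Dusp9 rose by 0.62 ± 0.096 and 0.77 ± 0.093 and Tbx3 by 0.63 ± 0.047 and 0.55 ± 0.047. In SL the same list had 1 gene higher and 1 lower in clone 1 and 1 higher and 4 lower in clone 2. Of all genes, 16.6% were called in clone 1 and 26.9% in clone 2 in SL. The interaction was called for Dusp9, Tbx3, Gata2 and Gata3 in both clones, with values from 0.67 to 1.40. It was called for 17% of all genes in clone 1 and 16.9% in clone 2.

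Some inhibitors and receptors were also called between the clones and chr8A in SL2i, where 22.4% of all genes were called in clone 1 and 20.6% in clone 2. Smad7, an inhibitory SMAD gene that responds to BMP and TGF-beta, rose by 0.68 ± 0.069 and 0.59 ± 0.069 (adjusted p = 2.1e-14 and 1.6e-11), unlike its relative Smad6. Tob1 fell in both (-0.50 ± 0.086 and -0.46 ± 0.085). Rgma fell (-1.84 ± 0.20 and -1.85 ± 0.20), from 17.6 CPM to 4.92 and 4.87 CPM, and Bmpr2 rose by 0.39 ± 0.075 and 0.37 ± 0.074. The list of SMAD mediators and inhibitors had 2 higher and 2 lower in clone 1 and 1 higher and 2 lower in clone 2. Of 9 antagonists, Fstl1 alone passed in each clone, at -0.84 ± 0.053 and -0.83 ± 0.052, with 8.64% of its words shared. No other ligand gene rose in both clones: Bmp7 fell in both (-0.51 ± 0.19 and -0.53 ± 0.19), and Bmp6 (1.24 ± 0.44) passed in clone 1. Of 7 E protein and partner genes none rose and 2 fell in each clone, Tcf4 (-0.50 ± 0.073 and -0.49 ± 0.073) and the E2A gene Tcf3 (-0.22 ± 0.046 and -0.29 ± 0.046).

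In SL, where 16.6% and 26.9% of all genes were called in clones 1 and 2, the lists held calls as well. Of 9 antagonists, 1 was higher in clone 1, and 1 was higher and 3 lower in clone 2. Those lower in clone 2 were Fstl1 (-0.27 ± 0.034), Fstl3 (-0.72 ± 0.27) and Twsg1 (-0.11 ± 0.043). Of 10 receptors and co-receptors, 1 was higher and 1 lower in clone 1, and 1 was lower in clone 2. The SMAD list of 9 had 1 higher in clone 1, with 1 higher and 1 lower in clone 2, and of 7 ligands 1 was lower in clone 1 and 2 in clone 2. Ets1 and Ets2 rose in clone 1 among 7 E protein and partner genes. Fst rose by 0.83 ± 0.13 and 0.80 ± 0.12, Skil by 0.19 ± 0.029 and 0.24 ± 0.028, and Acvr2b fell (-0.22 ± 0.035 and -0.22 ± 0.034). Bmp7 fell by 0.43 ± 0.13 in clone 1 and fell by 0.72 ± 0.13 in clone 2. Of the E protein genes Tcf3, Tcf4 and Tcf12 none was called in SL in either clone.

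Genes beside Id3 and Bmp4 on the chromosome were read in the same comparisons. For the 3 measured neighbors on each side of Id3 on chromosome 4 (Pithd1, Eloa, Rpl11, E2f2, Asap3 and Tcea3), log2 differences of the clones from chr8A in SL2i ran from -0.24 to 0.28, against 2.25 and 2.03 for Id3. For Bmp4 on chromosome 14, Ddhd1, Gm7206, Ubb-ps, Cdkn3 and Cnih1 ran from -0.17 to 0.18 and none passed. The sixth, Gm15222, is annotated as an antisense gene at Bmp4 that shares 0 exon bases with it. It was rare, with means of 0.438, 1.66 and 0.927 CPM in chr8A, clone 1 and clone 2, and changed by 1.91 ± 0.62 in clone 1 (adjusted p = 0.016) and 1.06 ± 0.68 in clone 2 (adjusted p = 0.29). No source used here states the strand setting of the counting, so reads of overlapping genes on opposite strands may not be told apart. Shared exon bases with genes on the other strand made up 3.96% of Bmp4, 4.57% of Bmpr1a and, for 2 genes, 2.13% and 4.44% of Id4, and Id1, Id2, Id3, Smad6 and Bambi had none.

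**Figure D4:**
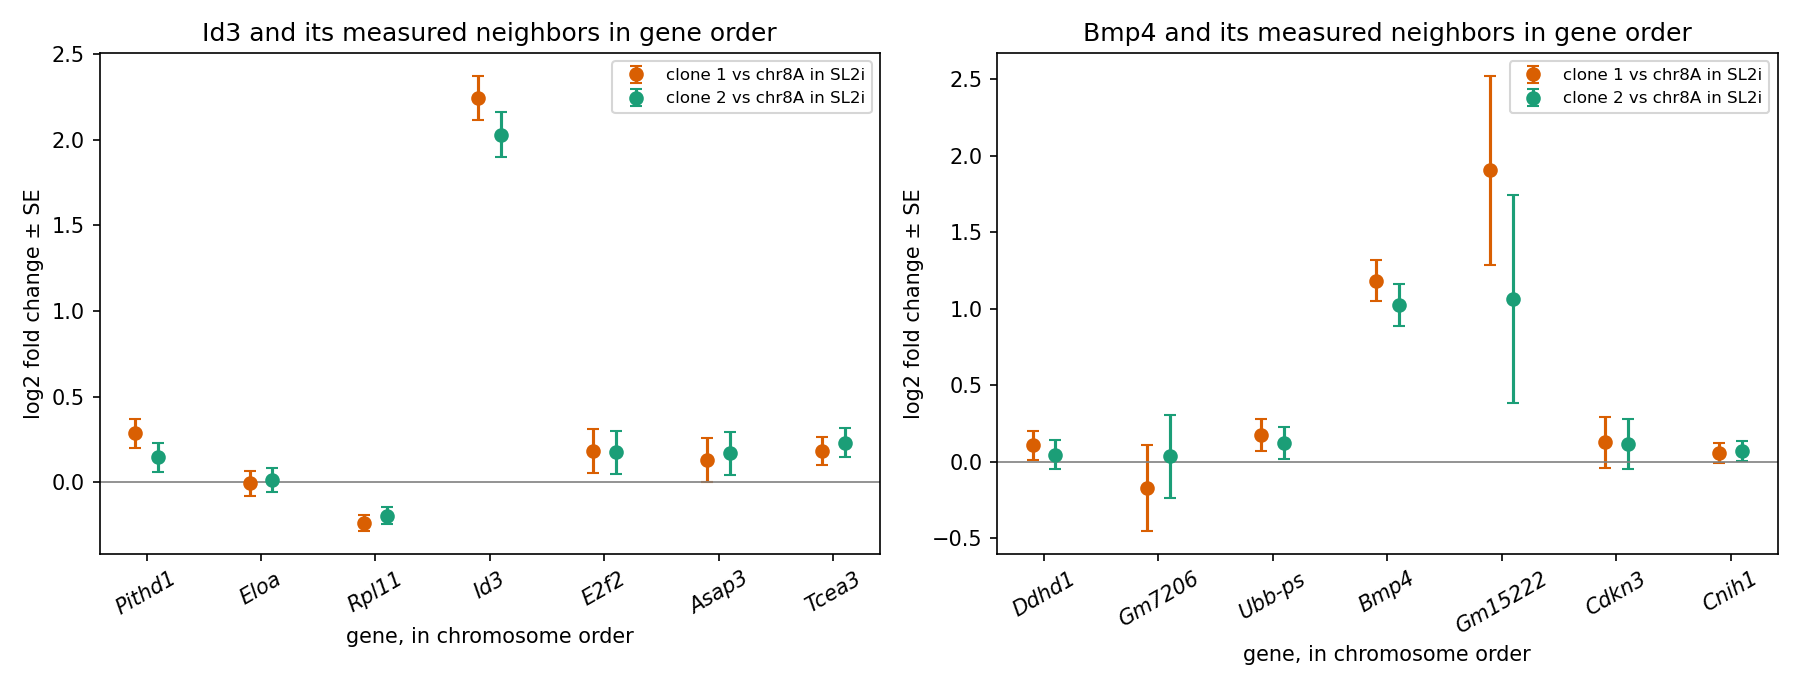
Log2 fold change ± SE (y axis) of each clone against chr8A in SL2i for Id3, Bmp4 and their 3 nearest measured genes on each side, in chromosome order (x axis). Id3 (2.25 and 2.03) and Bmp4 (1.18 and 1.02) stand above their neighbors except Gm15222, the antisense gene at Bmp4.

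As a description of pattern, log2 CPM of each gene was correlated with that of other genes over the 15 libraries of the clone table, which share the split by medium and its depth. The genes most like Id1 were Mycn (Pearson r = 0.997), Prps2 and Mapk6, and those most like Id2 were Dusp22 (r = 0.998), Itpkb and Amotl1. Id3 followed Selenow (r = 0.969), Pros1 (r = 0.965) and Tmem131 (r = 0.954), and Bmp4 followed Baiap2 (r = 0.944), Marcksl1 and Zfp36l1. The closest genes to Id4, Bmpr1a, Bambi and Smad6 were Ostf1 (r = 0.986), Aif1l (r = 0.993), Hes1 (r = 0.965) and Atp6v1g1 (r = 0.948). Among the 8 genes, Id1 and Id2 had r = 0.99 over all 15 libraries and 0.17 over the 9 SL libraries, so that likeness was one of medium. Bmp4 and Id3 had r = 0.79 over 15 libraries and -0.10 over the 9 in SL. Id1 and Id3 went the other way, with 0.13 over 15 libraries and 0.92 over the 9 in SL.

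LbNOX cells were compared with vector cells in SL to see whether NADH oxidation by an added enzyme goes with a change in these transcripts. None of the 8 genes passed the test, in a comparison that called 6 of 16119 genes (0.0372%). Id1 measured 116, 132 and 115 CPM in vector cells and 122, 125 and 145 CPM in LbNOX cells. Id3 measured 41.2, 55.1 and 40.6 CPM and 38.2, 40.5 and 56.6 CPM, and Bmp4 32.8, 28.1 and 32.6 CPM and 37.2, 36.8 and 29.5 CPM. The groups overlapped for all 8 genes (9.64% of all genes tested did not overlap), and vector replicate 2 and LbNOX replicate 3 were the highest of their groups for Id1, Id2 and Id3 and the lowest for Bmp4. Every adjusted p was 1, no gene had an unadjusted p under 0.05, and DESeq2 called none of the 8 either. The 95% intervals of the log2 difference were -0.05 to 0.27 for Id1, -0.12 to 0.43 for Id2, -0.49 to 0.46 for Id3, -0.34 to 0.29 for Id4 and -0.06 to 0.35 for Bmp4. They were -0.09 to 0.13 for Bmpr1a, -0.25 to 0.22 for Bambi and -0.41 to 0.30 for Smad6. Without vector replicate 2 and LbNOX replicate 3 together, a choice made after the values were seen, 49 genes were called and again none of the 8.

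**Figure D5:**
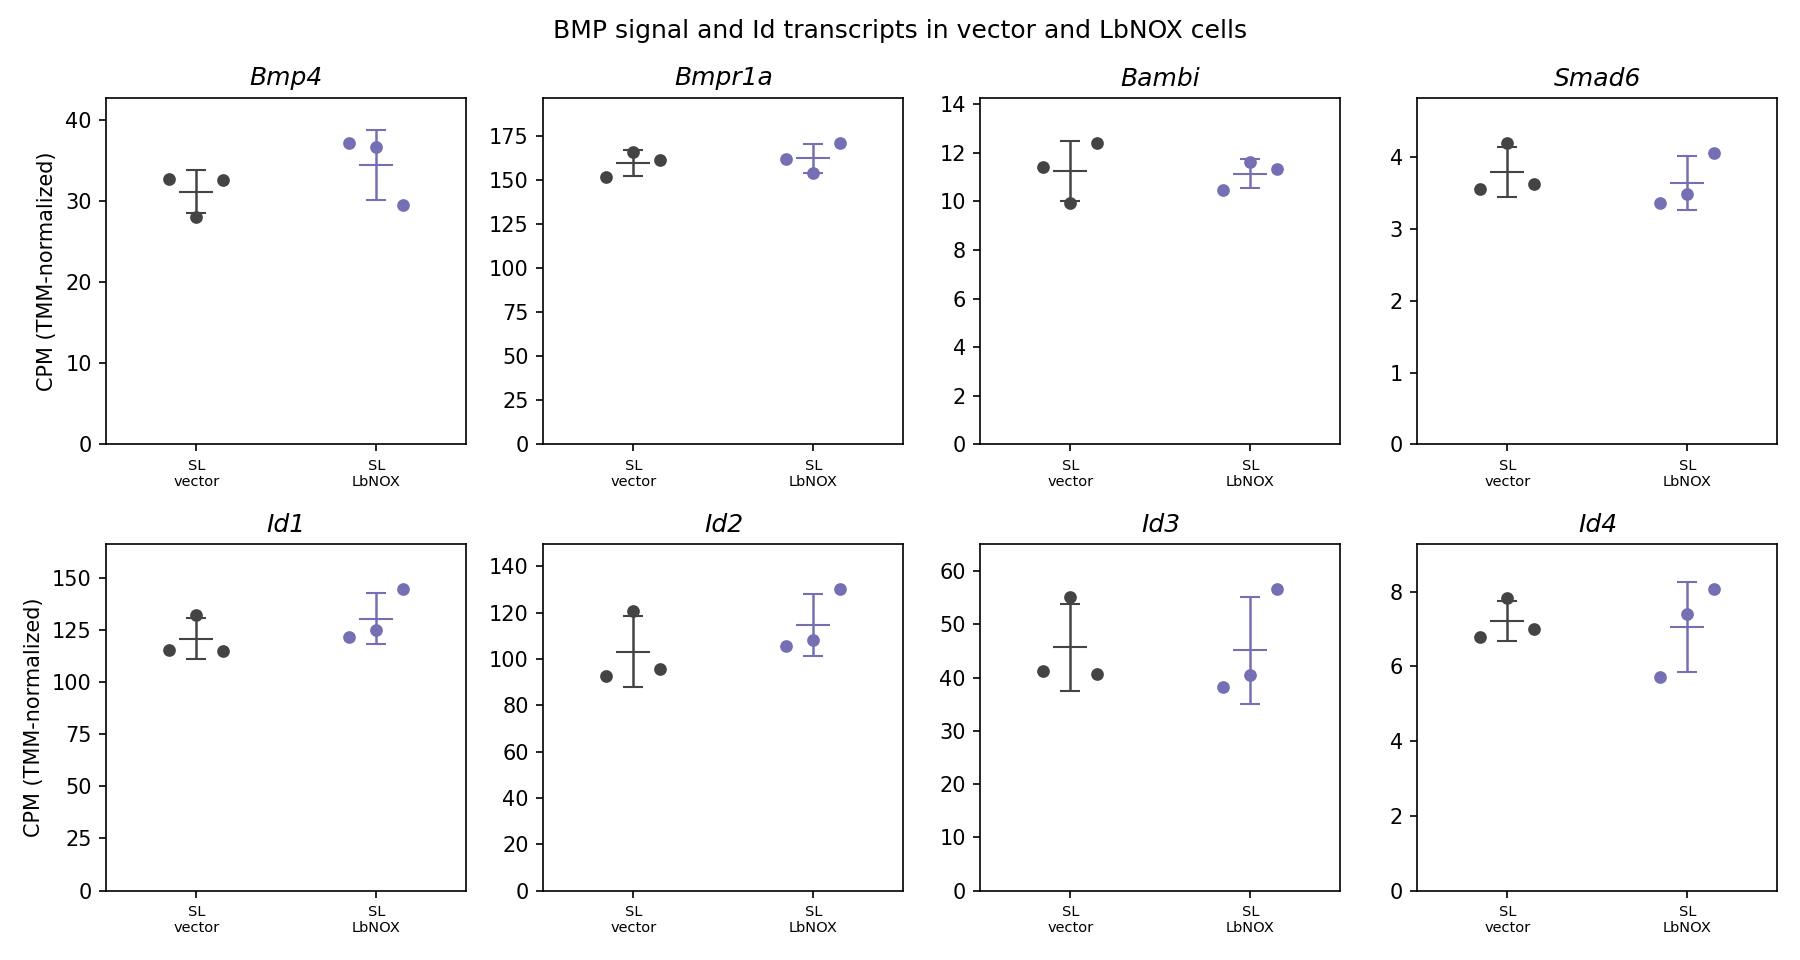
TMM-normalized CPM (y axis, linear, from 0) of the 8 genes in the 3 vector and 3 LbNOX libraries, all in SL; points are libraries and dashes with bars are group means ± SD. The groups overlap for every gene, and Id3 runs from 40.6 to 55.1 in vector and from 38.2 to 56.6 in LbNOX libraries.

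Summed per length, the 4 ID genes stood at 235 ± 29.1 CPM per kb in vector and 252 ± 31.8 in LbNOX cells (n = 3 each). Id1 was the most abundant of the 4 in these cells, with 44.5% ± 1.83 and 44.8% ± 1.35 of the sum, while in SL chr8A cells Id2 held the largest share, 52.8% ± 0.934. Bmp4 stood at 31.2 ± 2.65 and 34.5 ± 4.32 CPM in vector and LbNOX cells. The tables were normalized separately, so levels were not tested across them.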

How the data were processed

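Polyadenylated RNA of mouse ESCs was sequenced in 21 libraries. Per the labels' protocols, libraries came from 500 ng of RNA by a stranded kit with 8 PCR cycles. The authors used, per the submitters' processing notes, DRAGEN 3.10, featureCounts of Subread and the build GRCm39. The deposited values are raw counts per gene in 2 tables, which were fitted separately. All count columns were used.

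The tests used edgeR 4.0.16 under R 4.3.3, with genes kept by filterByExpr, scaling by TMM and the robust quasi-likelihood test on 1 mean per group, with p-values adjusted over all genes tested. One fit held the 6 vector and LbNOX libraries (16119 genes), and the other held the 15 libraries of the clone table (17178 genes), sharing one spread. A gene was called at an adjusted p under 0.05. CPM are TMM-normalized, errors of CPM are SD and errors of changes SE, and per-kb values use the tables' gene lengths. The precision of a change is given by its 95% interval. The SE of a change is its size divided by the square root of the test's F statistic, and the interval uses this SE. For large falls to few reads, such as Id1 in SL2i, both can be narrower than counting noise alone allows. Groups came from the sample titles.

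The members and lists were chosen with earlier results of these data known, so counts over lists are descriptions. Named genes are the 8 members, Slc16a1 and up to 4 called genes per list and comparison with the smallest adjusted p and at least 1 CPM in a compared group. The 3 most alike genes per member were taken among genes averaging 3 log2 CPM or more. Shared words were counted on either strand in an older annotation, of which names, gene order and promoter windows were used. The pipeline was tested on data simulated with 1.5-fold and 2-fold changes in a small set of genes and no other difference between groups. The medium comparison in chr8A called 72.8% of all genes, so the simulation does not represent it. False calls were 21 of 163 for LbNOX against vector and 13 of 151 for the medium in chr8A. For clone 1 against chr8A they were 14 of 166 in SL and 7 of 134 in SL2i. Of the 1.5-fold changes 57% to 75% were recovered, and of the 2-fold changes 70% to 77%. Alternatives were other size factors, no filter, another filter, DESeq2 1.42.0, the replicate block, the groups compared alone, equal depth and each library left out.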

Additional observations from a re-analysis of the deposited data

Results flagged for a closer look

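The change with medium differed between the clones and chr8A by a test of the difference itself for 2 genes in both clones and for 1 more in clone 1. The same test passed for 17% of all genes in clone 1 and 16.9% in clone 2. For Id3 the difference in log2 fold change was 1.84 in clone 1 (adjusted p = 7.9e-19, edgeR) and 1.70 in clone 2 (adjusted p = 7.3e-17). For Bmp4 it was 1.14 (adjusted p = 2.7e-08) and 1.04 (adjusted p = 2.6e-07). Leaving out 1 library at a time kept Id3 between 1.74 and 1.96 in clone 1 and between 1.61 and 1.82 in clone 2, and Bmp4 between 1.02 and 1.30 and between 0.87 and 1.21. For Id2 in clone 1 it was -0.45 (adjusted p = 0.041), a call that many settings ended. All 5 rest on the same 2 chr8A libraries in SL2i.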

How the results depend on the processing

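Of 43 called changes of the 8 genes, 541 alternatives gave 520 calls in the same direction, 21 that no longer passed and 0 of opposite sign. Of 53 uncalled changes, 691 alternatives gave 8 calls and 46 turns of sign. At equal depth the turned values were -0.029 for Bmp4 in clone 1 and 0.10 for Bambi and 0.030 for Smad6 in clone 2 (against chr8A, SL), 0.049 for Bambi in clone 1 (SL2i), 0.029 for Id3 and 0.14 for Id4 between the clones in SL, 0.019 for Id1 between the clones in SL2i, and -0.023 for the Bambi interaction in clone 2. Ranges over the libraries left out, for the changes that turned there, follow. For clone 1 against chr8A in SL they were Smad6 -0.039 to 0.12, Id4 -0.38 to 0.011 and Bmp4 -0.0093 to 0.11. For clone 2 in SL they were Bmp4 -0.091 to 0.067. For clone 1 in SL2i they were Bambi -0.080 to 0.067, Id1 -0.31 to 0.094 and Bmpr1a -0.084 to 0.0068. For clone 2 in SL2i they were Bmpr1a -0.012 to 0.063, Id1 -0.20 to 0.017, Id2 -0.065 to 0.092 and Bambi -0.095 to 0.18. Between the clones they were, in SL, Bmp4 -0.14 to 0.021 and Bmpr1a -0.043 to 0.0016. Between the clones in SL2i they were Bambi -0.088 to 0.19, Id1 -0.19 to 0.21 and Smad6 -0.70 to 0.0053. With LbNOX against vector these ranges were Bmpr1a -0.014 to 0.060, Bambi -0.089 to 0.056, Smad6 -0.14 to 0.021, Id3 -0.21 to 0.14 and Id4 -0.13 to 0.10. For the interaction in clone 2 the range was Bmpr1a -0.045 to 0.031. The cause was not tested. Between the clones in SL, 2 genes were called with only those groups fitted. With each library left out, 1 to 2 were called there (2 without SL clone 1 replicate 2), and 2 to 4 of the 8 for clone 2 against chr8A in SL2i (2 without SL2i chr8A replicate 1 or SL2i clone 2 replicate 2).

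Replicate numbers did not pair the samples: deviations of same-numbered libraries correlated at -0.159 to 0.127. With the number as a replicate block, the Id1 interaction in clone 1 passed (-0.67, adjusted p = 0.029), and LbNOX against vector called 3 genes in place of 6. Without the filter it called 24 genes and with DESeq2 15. At equal depth, clones 1 and 2 in SL had 1846 and 2887 genes called in place of 2850 and 4618. Between the clones in SL2i DESeq2 called 43 genes and the groups alone 11, in place of 27. Between the clones in SL, DESeq2 called 487, equal depth 413 and the groups alone 1223, in place of 756. SL2i groups had 2 shallower libraries each, and Id1 had 34 to 50 reads in each of them.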
